A study of Mus musculus with 12 samples.

Results

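The genes of the thioredoxin system followed here were 10 listed mouse genes, Txnrd1, Txnrd2, Txn1, Txn2, Srxn1, Prdx1, Prdx2, Prdx3, Prdx5 and Prdx6, and their members on the array were all probe sets whose annotation names 1 of these genes and no other. The rule gave 19 of 45101 probe sets, and they represented 7 of the 10 genes: 3 probe sets for Txnrd1, 4 for Txnrd2, 2 for Txn1, 3 for Txn2, 4 for Srxn1, 2 for Prdx2 and 1 for Prdx3. The 5 probe sets that name Prdx1 also name Gm21399, so Prdx1 had 0 probe sets of its own, and Prdx5 and Prdx6 were not analysed here. Of the 19 probe sets, 18 exceeded a log2 signal of 5 on at least 3 arrays and were tested. The remaining one, 1456734_at of Txn1, lay between 2.22 and 2.32 on all 12 arrays, at the level of probe sets without signal.

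Liver RNA from 12 male C57BL/6J mice, 9 weeks old, was measured on 1 Affymetrix array per mouse, in 4 groups of 3 mice. All mice carried Cre recombinase under the albumin promoter, which is active in hepatocytes. CKO mice had 1 floxed and 1 null Keap1 allele (Albumin-Cre:Keap1 flox/-), and their genetic controls, called WT here, had 1 floxed and 1 intact allele (Alb-Cre:Keap1 flox/+), so the controls can lose 1 Keap1 copy in hepatocytes and the CKO mice lack 1 copy in every cell. Each genotype received by gavage either vehicle (Cremophor-EL, DMSO and PBS) or 1 dose of 30 umol/kg of the triterpenoid CDDO-Im, a known Nrf2 activator, and the liver was collected after 6 h. Keap1 is the adaptor that directs the transcription factor Nrf2 to degradation. The comparisons address how deletion of Keap1 and a single dose of the drug each affect liver expression, and whether the drug adds to the deletion.

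The thioredoxin system carries electrons from NADPH to oxidised proteins and peroxides. A thioredoxin reductase reduces a thioredoxin, the thioredoxin reduces a peroxiredoxin, and the peroxiredoxin reduces hydrogen peroxide; sulfiredoxin repairs a peroxiredoxin whose catalytic cysteine has been over-oxidised. Cytosol and mitochondria have separate sets of these proteins, with Txnrd1, Txn1 and Prdx2 in the cytosol and Txnrd2, Txn2 and Prdx3 in mitochondria, and Srxn1 is mainly cytosolic. Nrf2, paired with a small Maf protein, binds antioxidant response elements, and Txnrd1 and Srxn1 are textbook Nrf2 targets in liver.

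The promoters of Srxn1 and Txnrd1 are printed because the results turn on these genes. Both are RefSeq sequence of GRCm38.p6, the 250 bases before an annotated transcription start, on the plus strand. The Srxn1 stretch is chr2:152105274-152105523. The Txnrd1 stretch, before the second of the gene's 3 annotated starts in the RefSeq table, is chr10:82858956-82859205. Capitals mark TGAGTCA in Srxn1 and, in Txnrd1, the reverse complement GCNNNGTCA of the antioxidant response element core TGACNNNGC.
Srxn1: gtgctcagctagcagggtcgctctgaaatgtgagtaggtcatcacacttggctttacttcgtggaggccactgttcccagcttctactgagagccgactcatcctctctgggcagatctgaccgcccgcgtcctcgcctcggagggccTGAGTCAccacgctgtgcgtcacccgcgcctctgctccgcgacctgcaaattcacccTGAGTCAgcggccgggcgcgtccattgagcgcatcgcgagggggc
Txnrd1: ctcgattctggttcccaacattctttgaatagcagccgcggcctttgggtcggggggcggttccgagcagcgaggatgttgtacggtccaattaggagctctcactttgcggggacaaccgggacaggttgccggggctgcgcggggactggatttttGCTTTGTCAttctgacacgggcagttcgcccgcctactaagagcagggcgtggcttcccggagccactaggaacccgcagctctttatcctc
The core TGACNNNGC was searched on both strands of the 300-base windows from 250 bases before to 50 bases after each annotated start. Of the 10 listed genes 9 had such windows, 11 in all. The core was found in 3 of them, in those of Txnrd1, Srxn1 and Prdx1, and in 4071 of 32851 windows of all genes (12.39%). The first base of the Txnrd1 match, GCTTTGTCA, lies 92 bases before the start. The Srxn1 match lies 29 bases after the start, outside the printed stretch. The Srxn1 stretch also holds TGAGTCA at 102 and 45 bases before the start. This second motif was chosen after the promoters were read, and 1 of its copies in Prdx1 overlaps that gene's core match. At least 1 copy of TGAGTCA was found in 1709 of all windows (5.2%). A window with at least 2 copies, as in Srxn1 and Prdx1, was found 73 times (0.222%). The cut of 2 copies was also taken from these promoters, so these shares test nothing. A match describes letters and does not show binding.

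All values below are log2 signals as deposited, and a change is a difference of group means with the standard error (SE) of the limma fit. That fit held 13298 probe sets on all 12 arrays, p-values were adjusted by Benjamini-Hochberg over all of them, and a probe set was called at an adjusted p under 0.05. The brightest probe set of a gene over the 12 arrays is described first. Array medians lay between 2.32 and 2.34, close to the lowest value, which 16494 to 16776 of 45101 probe sets held on each array. Replicates correlated at 0.996 to 0.998, and arrays of different groups at 0.993 to 0.997. These ranges overlap, and such measures are too coarse to tell whether an array stood apart. The deletion was checked on Keap1, of which 1450746_at was 7.92 to 8.17 in WT vehicle and 2.74 to 2.87 in CKO vehicle (change -5.23 ± 0.13, limma adjusted p = 1.81e-08). The second Keap1 probe set, 1450747_at, differed by -0.68 ± 0.20 (adjusted p = 0.0734). Nqo1, a quinone reductase and marker of Nrf2 activity, rose by 4.86 ± 0.35 with the deletion and by 3.45 ± 0.35 with the drug in WT livers (limma adjusted p = 5.31e-05 and 7.58e-04). None of the 7 tested hepatocyte markers was called in any of the 7 comparisons by limma, and their summed log2 signal was 18.24 to 18.34.

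Txnrd1, the cytosolic thioredoxin reductase, rose in livers without hepatocyte Keap1 and in WT livers given CDDO-Im. Its brightest probe set, 1421529_a_at, gave 11.71, 12.16 and 11.93 in WT vehicle and 13.16, 13.18 and 12.97 in CKO vehicle. WT CDDO-Im arrays gave 13.31, 13.44 and 13.24, and CKO CDDO-Im arrays gave 12.89, 12.96 and 13.21. Every array of the other 3 groups lay above every WT vehicle array. The deletion raised Txnrd1 by 1.17 ± 0.13 (2.25-fold, limma adjusted p = 7.57e-04). The drug raised it in WT livers by 1.40 ± 0.13 (2.64-fold, limma adjusted p = 4.05e-04). In CKO livers the drug gave a difference of -0.08 (95% interval -0.36 to 0.20, adjusted p = 0.887). The drug change in CKO minus that in WT was -1.48 ± 0.18 (limma adjusted p = 0.0137), a call that was lost without CKO vehicle replicate 3 (adjusted p = 0.0561) or CKO CDDO-Im replicate 3, and with no filter on low signal (adjusted p = 0.0554).

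The other Txnrd1 probe sets were dimmer and moved in the same direction. Probe set 1424486_a_at averaged 6.48 ± 0.53 (SD, n = 3) in WT vehicle, 8.49 ± 0.32 in CKO vehicle, 8.50 ± 0.30 in WT CDDO-Im and 8.20 ± 0.76 in CKO CDDO-Im. Its rise was 2.01 ± 0.37 with the deletion and 2.02 ± 0.37 with the drug in WT livers (limma adjusted p = 0.0114 and 0.0160). The drug call was lost without WT vehicle replicate 2 or WT CDDO-Im replicate 3 (adjusted p up to 0.0604). Probe set 1424487_x_at rose by 1.52 ± 0.26 and 1.50 ± 0.26 in these comparisons (limma adjusted p = 0.00835 and 0.0123), from a WT vehicle mean of 4.97. Its WT vehicle arrays were 4.56, 5.16 and 5.18, with a mean under the floor of 5. It passed the filter only through the groups where it was higher. Both calls of both dimmer probe sets were lost with no filter on low signal (adjusted p = 0.0570 to 0.0992). Over the 12 arrays the 3 probe sets correlated at 0.930 to 0.978.

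Txnrd2, the mitochondrial reductase, did not pass the test in any comparison with any of its 4 probe sets. The brightest, 1449097_at, stood at 9.17, 9.68 and 9.60 in WT mice on vehicle and at 9.47, 9.48 and 9.32 in WT mice on the drug. In CKO mice it stood at 9.31, 9.37 and 9.17 on vehicle and 8.90, 9.29 and 9.40 on the drug. The 4 groups overlap. Its change was -0.20 (95% interval -0.54 to 0.15) with the deletion and -0.06 (-0.41 to 0.28) with the drug in WT livers. The 3 dimmer probe sets differed by -0.16 to -0.09 with the deletion and by -0.05 to 0.13 with the drug in WT livers.

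**Figure D1:**
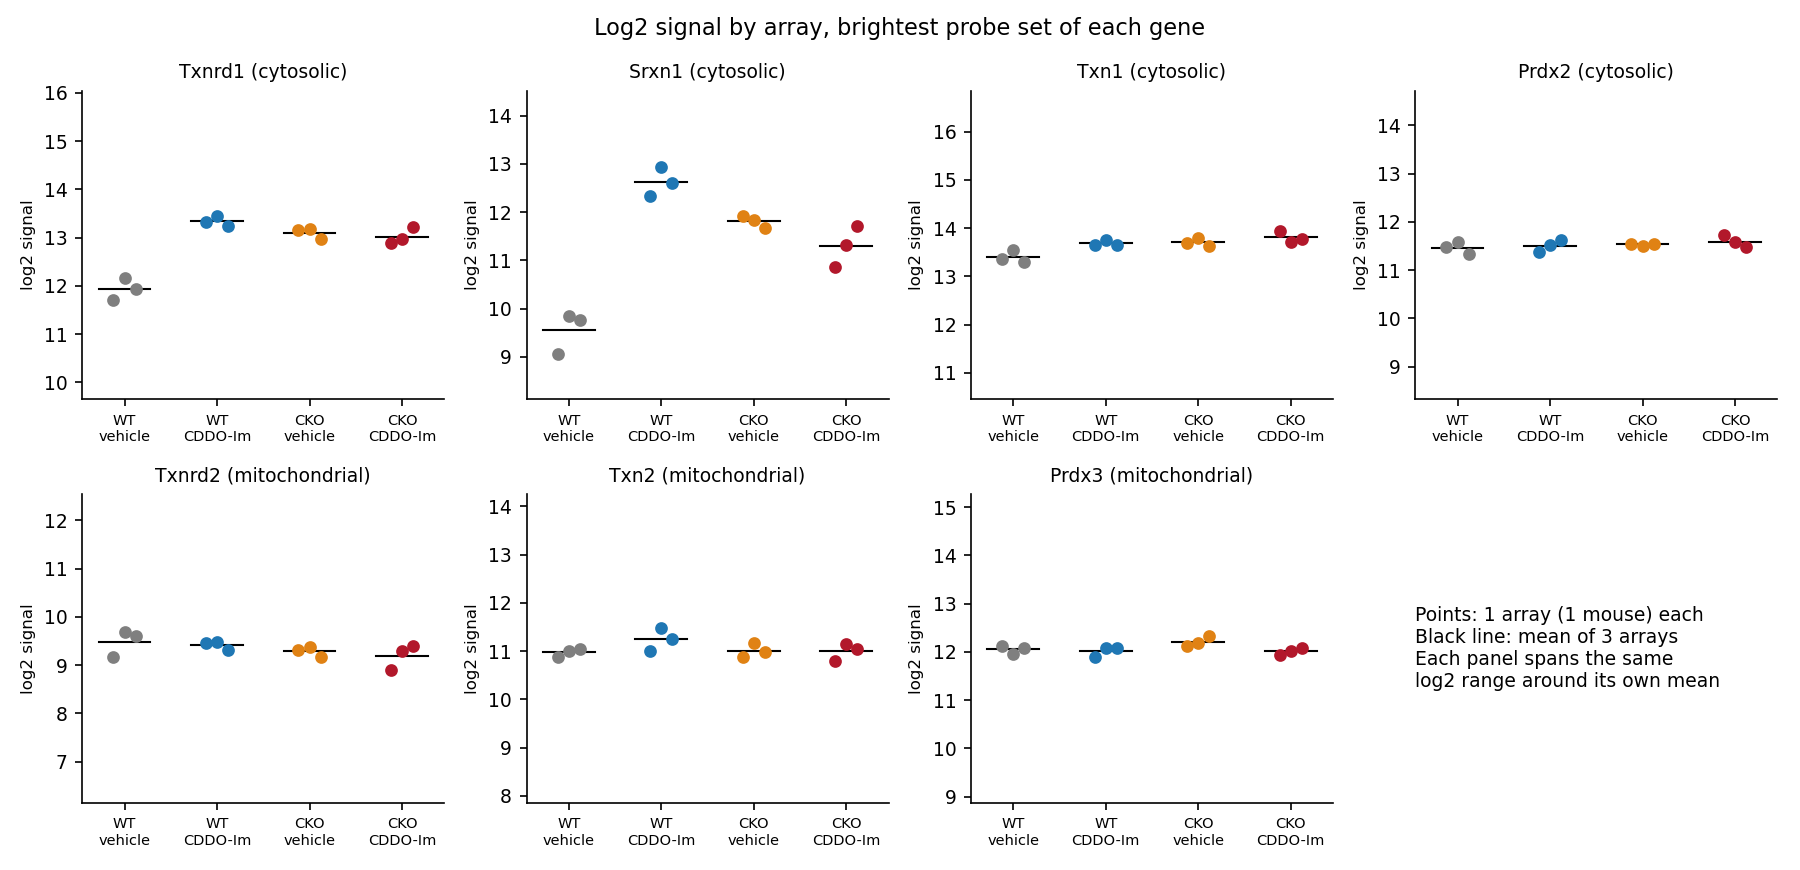
Log2 signal (y axis) on each of the 12 arrays for the brightest probe set of the 7 genes, by group (x axis). Points are single mice, black lines are means of 3, and all panels span the same log2 range. Txnrd1 and Srxn1 lie at 11.93 and 9.55 on average in WT vehicle and above that in every other array, while the groups of Txnrd2, Txn2 and Prdx2 overlap.

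Srxn1, the sulfiredoxin, had the largest changes among the 7 genes with the deletion and with the drug in WT livers. Probe set 1426875_s_at gave 9.05, 9.84 and 9.76 in WT vehicle and 11.91, 11.84 and 11.68 in CKO vehicle. It gave 12.32, 12.94 and 12.61 in WT CDDO-Im and 10.86, 11.32 and 11.70 in CKO CDDO-Im. WT vehicle was lowest and WT CDDO-Im highest without overlap with any other group, and the ranges of the 2 CKO groups met between 11.68 and 11.70. The deletion raised Srxn1 by 2.25 ± 0.25 (4.77-fold, limma adjusted p = 9.13e-04). The drug raised it in WT livers by 3.07 ± 0.25 (8.40-fold, limma adjusted p = 3.21e-04). Probe sets 1451680_at and 1425351_at rose by 2.74 ± 0.36 and 2.62 ± 0.30 with the deletion, and by 3.31 ± 0.36 and 3.33 ± 0.30 with the drug in WT livers (limma adjusted p from 4.05e-04 to 0.00216). On all 3 of these probe sets, WT vehicle replicate 1 was the lowest array, at 8.41 on 1451680_at against 9.56 and 9.70 in the other WT vehicle arrays.

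The fourth Srxn1 probe set, 1419942_at, disagreed in size with the other three. It averaged 6.85 ± 0.13 (SD, n = 3) in WT vehicle, 7.26 ± 0.15 in WT CDDO-Im, 7.30 ± 0.32 in CKO vehicle and 7.09 ± 0.28 in CKO CDDO-Im. Its change was 0.46 with the deletion and 0.41 with the drug in WT livers (limma adjusted p = 0.164 and 0.243). Neither group overlapped WT vehicle, as was the case for 25.7% and 23.3% of all tested probe sets in these comparisons. Its correlation with the other Srxn1 probe sets over the 12 arrays was 0.673 to 0.696, against 0.988 to 0.996 among those. The place of each probe set in the transcript is not known here.

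**Figure D2:**
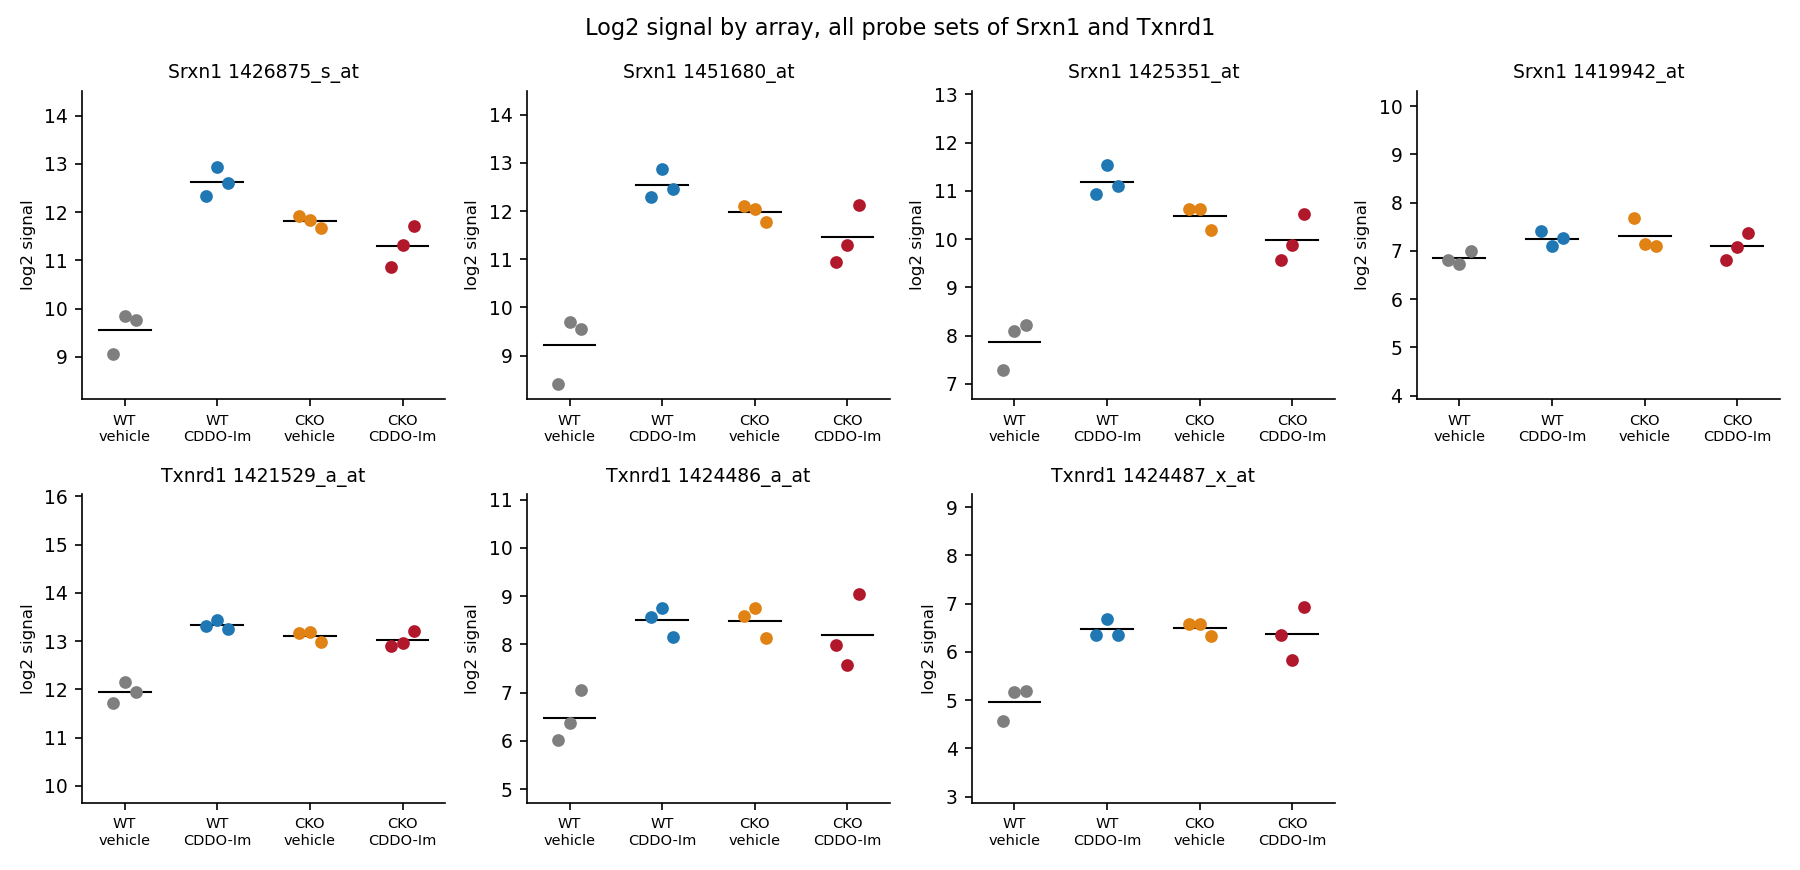
Log2 signal (y axis) on each array for the 4 probe sets of Srxn1 (top row) and the 3 of Txnrd1 (bottom row), by group (x axis). Points are single mice and black lines are means of 3. On 3 Srxn1 probe sets the WT CDDO-Im arrays are highest, while 1419942_at spans only 6.73 to 7.68.

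In CKO livers no rise of Srxn1 with the drug passed the test. The difference between CKO CDDO-Im and CKO vehicle was -0.52 (95% interval -1.08 to 0.05, adjusted p = 0.605) on 1426875_s_at, and -0.52 and -0.49 on 1451680_at and 1425351_at. The upper ends of these 3 intervals were 0.05, 0.28 and 0.17, against lower ends of 2.51, 2.51 and 2.67 for the drug change in WT livers. The drug change in CKO minus that in WT was -3.59 ± 0.36 on 1426875_s_at, -3.83 ± 0.51 on 1451680_at and -3.82 ± 0.42 on 1425351_at (limma adjusted p = 0.00537, 0.0155 and 0.00954). On 1451680_at that call was lost without CKO vehicle replicate 3 (adjusted p = 0.0656), CKO vehicle replicate 4, CKO CDDO-Im replicate 2 or CKO CDDO-Im replicate 3. With no filter on low signal it was lost on 1451680_at and 1425351_at (adjusted p = 0.121 and 0.0554).

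The order of the groups for Srxn1 was WT vehicle at 9.55, CKO CDDO-Im at 11.29, CKO vehicle at 11.81 and WT CDDO-Im at 12.62 on average (1426875_s_at). CKO vehicle and WT CDDO-Im, the deletion set directly against the drug, did not overlap on 3 of the 4 probe sets, as 26.4% of all tested probe sets did not, and the difference did not pass the test (difference -0.82, 95% interval -1.38 to -0.25, limma adjusted p = 0.102 on 1426875_s_at). Under the drug, Srxn1 was lower in CKO than in WT livers by 1.33 ± 0.25 on the log2 scale on 1426875_s_at (2.52-fold, limma adjusted p = 0.0352). Probe sets 1451680_at and 1425351_at differed by -1.08 and -1.20 there short of the threshold (limma adjusted p = 0.185 and 0.0833). The 1426875_s_at call was lost with no filter (adjusted p = 0.174), with the arrays of these 2 groups alone (0.118), and without WT CDDO-Im replicate 2, 3 or 4, CKO vehicle replicate 3, 4 or 5, or CKO CDDO-Im replicate 2 or 3 (up to 0.149). For Txnrd1 the corresponding difference was -0.31 (95% interval -0.59 to -0.03, limma adjusted p = 0.270).

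Txn1, the cytosolic thioredoxin that Txnrd1 reduces, lay slightly higher in all 3 groups than in WT vehicle. Probe set 1416119_at read 13.36, 13.55 and 13.30 in WT livers under vehicle and 13.66, 13.75 and 13.66 under the drug. CKO livers read 13.69, 13.80 and 13.63 under vehicle and 13.94, 13.71 and 13.78 under the drug. No array of these 3 groups fell within the WT vehicle range. Such a lack of overlap held for 25.7% of all tested probe sets with the deletion and 23.3% with the drug in WT livers. The change missed the threshold with the deletion (0.30 ± 0.09, 1.23-fold, limma adjusted p = 0.0830) and with the drug in WT livers (0.28 ± 0.09, 1.22-fold, limma adjusted p = 0.124). CKO CDDO-Im against WT vehicle passed it (0.40 ± 0.09, 1.32-fold, limma adjusted p = 0.0268). That call was lost without WT vehicle replicate 1 or 3 or CKO CDDO-Im replicate 2 or 4 (adjusted p up to 0.0786), with no filter (0.0712) and with these 2 groups alone (0.107).

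Txn2, the mitochondrial thioredoxin, did not pass the test in any comparison. Its brightest probe set, 1452782_a_at, stood at 10.88, 11.01 and 11.04 in WT mice on vehicle and at 11.00, 11.48 and 11.26 in WT mice on the drug. In CKO mice it stood at 10.87, 11.17 and 10.99 on vehicle and 10.79, 11.14 and 11.05 on the drug. The groups overlap, and WT CDDO-Im replicate 3 was the highest array. The change was 0.03 (95% interval -0.27 to 0.33) with the deletion and 0.27 (-0.03 to 0.57) with the drug in WT livers. The dimmer probe sets 1455640_a_at and 1421557_x_at each differed by 0.12 with the drug in WT livers, and by 0.20 and -0.01 with the deletion.

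Prdx2 and Prdx3, peroxiredoxins of the cytosol and of mitochondria, did not pass the test in any comparison. Prdx2 (1418506_a_at) read 11.49, 11.58 and 11.33 in WT livers under vehicle and 11.37, 11.52 and 11.61 under the drug. CKO livers read 11.54, 11.51 and 11.55 under vehicle and 11.74, 11.57 and 11.47 under the drug. Its change was 0.07 (95% interval -0.15 to 0.28) with the deletion and 0.04 (-0.18 to 0.25) with the drug in WT livers, so a rise of the size seen for Txnrd1 lies outside both intervals. The dimmer probe set 1430979_a_at differed by -0.09 and 0.02. Prdx2 is abundant in red blood cells. Of the 5 erythroid markers listed, only Alas2 was tested, and the summed signal of the list was 11.04 to 11.40 (WT vehicle), 10.85 to 11.33 (WT CDDO-Im), 9.33 to 11.20 (CKO vehicle) and 9.84 to 10.46 (CKO CDDO-Im), as a log2 value. Alas2 made up nearly all of that sum on every array, and Hba-a1 read 2.22 throughout, so the sum followed 1 gene. The part of red cells in the Prdx2 signal was not tested, and in whole liver fewer cells of a type and less RNA per cell cannot be told apart.

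Prdx3 (1416292_at) stood at 12.12, 11.96 and 12.08 in WT mice on vehicle and at 11.89, 12.08 and 12.09 in WT mice on the drug. In CKO mice it stood at 12.13, 12.19 and 12.32 on vehicle and 11.93, 12.02 and 12.08 on the drug. CKO vehicle arrays were the highest, above every array of the other groups. CKO vehicle did not overlap WT vehicle for 25.7% of all tested probe sets, or WT CDDO-Im for 26.4%. The change of Prdx3 was 0.16 (95% interval -0.03 to 0.36, limma adjusted p = 0.303) with the deletion and -0.20 (-0.40 to -0.01, limma adjusted p = 0.568) with the drug in CKO livers. The latter was the only member with an unadjusted p under 0.05 in that comparison.

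Set by compartment, the calls lay in cytosolic members. The deletion raised 6 of 10 tested cytosolic probe sets and 0 of 8 mitochondrial ones, where 3.2% of all tested probe sets rose and 6.23% were called in either direction. Groups did not overlap for 9 of the 18 members, against 25.7% of all probe sets. The 6 were the 3 probe sets of Txnrd1 and 3 of Srxn1, among them 1424487_x_at, which passed the filter only through the groups where it was higher. The drug in WT livers raised 6 of 10 cytosolic and 0 of 8 mitochondrial probe sets, where 2.1% of all rose and 3.96% were called, and groups did not overlap for 8 of 18 members against 23.3% of all. Probe sets of 1 gene are repeat measurements. By the brightest probe set of a gene, each of these comparisons called 2 of 4 cytosolic genes higher and 0 of 3 mitochondrial ones. Over all genes it was 3.17% with the deletion and 1.91% with the drug in WT livers. These comparisons share the WT vehicle arrays. In CKO livers the drug called 0 of 18 members and 0 of 13298 probe sets (0%) by limma, and 1 member and 1141 probe sets (8.58%) had an unadjusted p under 0.05. Under the drug, CKO against WT called 1 of 10 cytosolic probe sets lower and 0 of 8 mitochondrial ones (0.812% of all lower). CKO CDDO-Im against WT vehicle called 7 of 10 cytosolic probe sets higher and 0 of 8 mitochondrial ones (3.44% of all higher), among them Txnrd1 by 1.09 and Srxn1 by 1.74 on their brightest probe sets. CKO vehicle against WT CDDO-Im called 0 of 18 members (3.73% of all in either direction), and 3 of them and 2892 probe sets (21.7%) had an unadjusted p under 0.05. For the drug change in CKO minus that in WT, 4 of 10 cytosolic and 0 of 8 mitochondrial probe sets were called lower (0.286% of all lower).

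With 1 probe set per gene, the median change over the 4 cytosolic genes was 0.74 with the deletion and 0.84 with the drug in WT livers. Over the 3 mitochondrial genes it was 0.03 and -0.03, and over all 8338 genes tested -0.01 and -0.02. The cytosolic genes were themselves unequal, since Srxn1 and Txnrd1 rose, Txn1 did not pass the test and Prdx2 changed by 0.07 and 0.04. In CKO livers the drug gave medians of -0.01 for the cytosolic and -0.09 for the mitochondrial genes.

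**Figure D3:**
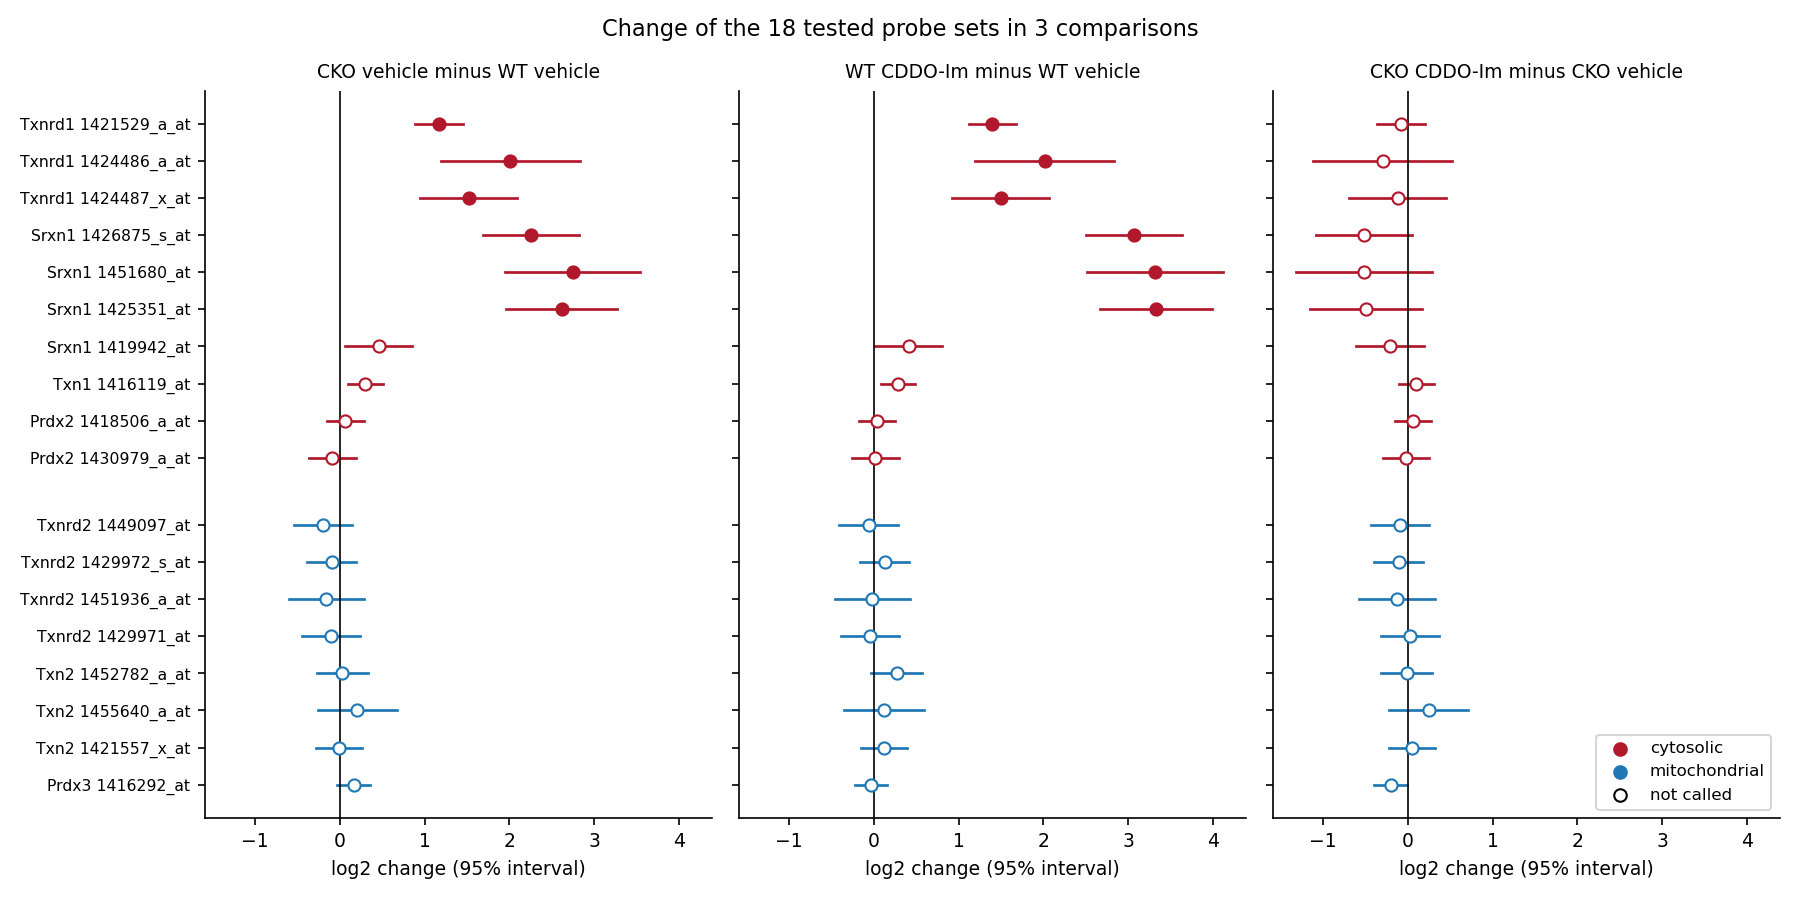
Log2 change with its 95% interval (x axis) of each of the 18 tested probe sets (y axis) in 3 comparisons (CKO vehicle against WT vehicle, WT CDDO-Im against WT vehicle, CKO CDDO-Im against CKO vehicle), cytosolic members in red and mitochondrial members in blue. Filled points passed the limma test at an adjusted p under 0.05, open points did not. The 6 filled points in each of the first 2 panels belong to Txnrd1 and Srxn1, and the third panel has 0.

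Whether a cytosolic member changed differently from its mitochondrial counterpart was tested on the per-array difference of the log2 signals. Relative to the WT vehicle mean, Txnrd1 minus Txnrd2 was -0.12 to 0.09 (WT vehicle), 1.40 to 1.51 (WT CDDO-Im), 1.35 to 1.40 (CKO vehicle) and 1.22 to 1.54 (CKO CDDO-Im). The 3 latter groups lay close together and far above WT vehicle. An exact two-sided permutation test within treatments gave a mean genotype difference of 0.64 (p = 0.0800), and within genotypes a mean treatment difference of 0.73 (p = 0.0450). After Benjamini-Hochberg adjustment over the 6 tests of 3 pairs both were 0.135. The treatment difference passed the correction without CKO CDDO-Im replicate 3 (0.77, adjusted p = 0.0450). In the full data 0.005 is the smallest unadjusted exact p that the 400 arrangements can give. These means average unlike values: the genotype difference was 1.37 under vehicle and -0.09 under the drug, and the treatment difference was 1.46 in WT and 0.01 in CKO. In a fit added after the data were seen, with the pair as a further row among all probe sets, Txnrd1 changed more than Txnrd2 by 1.37 ± 0.09 with the deletion and by 1.46 ± 0.09 with the drug in WT livers (limma adjusted p = 3.16e-05 and 1.40e-04). In CKO livers the difference was 0.01 (95% interval -0.20 to 0.21).

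For Txn1 minus Txn2, relative to the WT vehicle mean, WT vehicle arrays lay at -0.17 to 0.12, WT CDDO-Im at -0.16 to 0.22, CKO vehicle at 0.20 to 0.40 and CKO CDDO-Im at 0.14 to 0.72. The mean genotype difference was 0.32 (exact permutation p = 0.0150, adjusted 0.0900) and the mean treatment difference 0.06 (exact permutation p = 0.595, adjusted 0.714). The genotype difference, 0.27 under vehicle and 0.37 under the drug, did not pass the correction; without WT vehicle replicate 2 or CKO CDDO-Im replicate 3 it did (adjusted p = 0.0450). With the mean of each gene's probe sets it was 0.17 (adjusted p = 0.210). For Prdx2 minus Prdx3, the mean genotype difference was 0.00 (exact permutation p = 0.990) and the mean treatment difference 0.17 (exact permutation p = 0.0900, adjusted 0.135); the latter passed the correction without WT vehicle replicate 2 (adjusted p = 0.0450). Prdx2 stood in for Prdx1 in this pair, a choice made after the probe sets were seen.

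**Figure D4:**
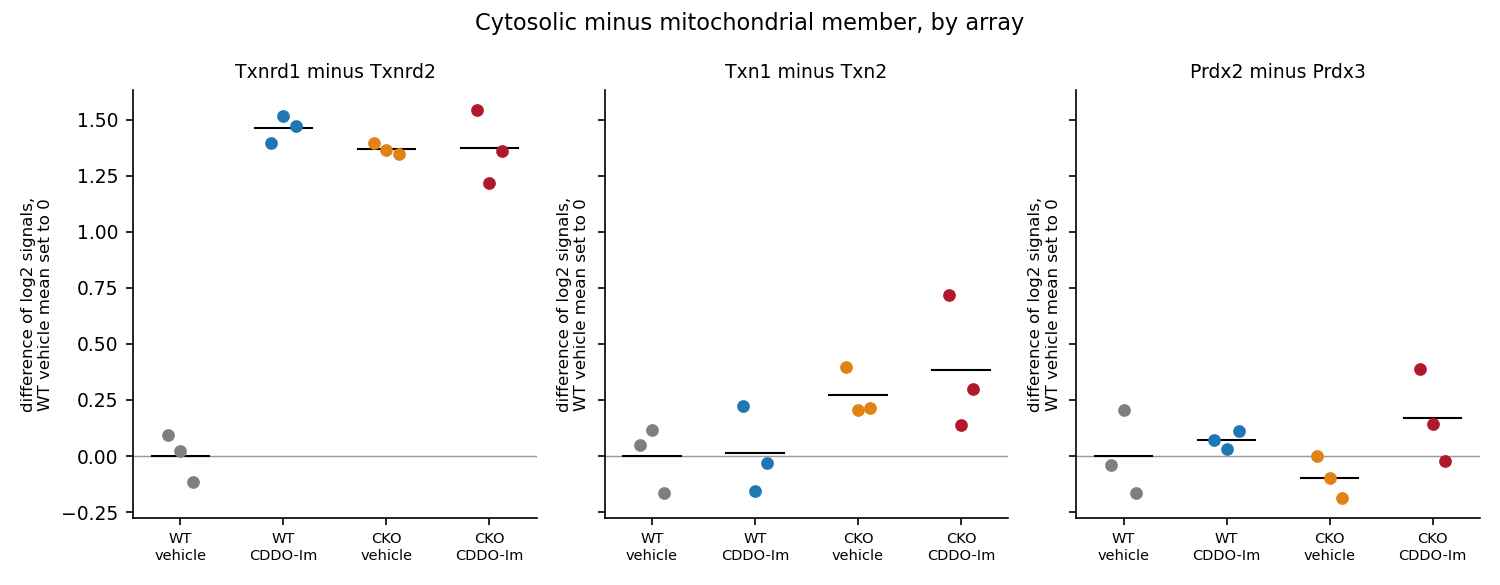
Log2 signal of the cytosolic member minus that of the mitochondrial member on each array (y axis), with the WT vehicle mean set to 0, by group (x axis) for 3 pairs. Points are single mice and black lines are means of 3. Txnrd1 minus Txnrd2 lies at 1.22 or above in every array outside WT vehicle, and the other pairs reach at most 0.72.

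Among other genes of the pathway, Gsr, glutathione reductase, followed the direction of Txnrd1. Of 31 further thioredoxin-fold and disulfide reduction genes listed, 26 were tested, and the deletion called 2 higher (Gsr and Txndc17) and 2 lower (Msrb1 and Tmx3), where 3.17% of all genes rose and 3.2% fell. The drug in WT livers called 1 higher (Gsr) and 1 lower (Tmx1), against 1.91% and 1.81% of all genes. The list's median change was -0.08 and -0.05. In CKO livers the drug called 0 of 26, and under the drug the genotypes differed in 1 of 26, Msra, which was higher in CKO (0.696% of all genes higher).

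Gsr read 10.61, 10.63 and 10.89 in WT livers under vehicle and 11.38, 11.88 and 11.71 under the drug. CKO livers read 11.63, 11.47 and 11.57 under vehicle and 11.36, 11.46 and 11.52 under the drug. Every array outside WT vehicle was higher than every WT vehicle array. It rose by 0.85 ± 0.13 with the deletion and by 0.95 ± 0.13 with the drug in WT livers (limma adjusted p = 0.00424 and 0.00355), the latter not with these 2 groups alone (0.0566). For the drug change in CKO minus that in WT, 1 of 26 genes of the list was called, lower (0.264% of all genes lower). It was Gsr, at -1.06 ± 0.18 (limma adjusted p = 0.0467). This call was lost with no filter (0.221), with quantile normalization (0.0535) and without any 1 array other than WT vehicle replicate 3 and WT CDDO-Im replicate 2 (up to 0.133).

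Txndc17, a cytosolic thioredoxin-like protein, rose by 0.39 ± 0.08 with the deletion (limma adjusted p = 0.0162), a call lost without WT vehicle replicate 1 or CKO vehicle replicate 3 (up to 0.0660). Msrb1, a selenoprotein that reduces oxidised methionine, fell by 0.52 on the log2 scale with the deletion (limma adjusted p = 0.00840). Tmx3 and Tmx1, thioredoxin-like proteins of the endoplasmic reticulum membrane, fell by 0.30 with the deletion (limma adjusted p = 0.0449) and by 0.31 with the drug in WT livers (limma adjusted p = 0.0361). Tmx3 missed the threshold without any 1 of 10 arrays and with no filter (0.0689), the 2 groups alone (0.131) or a trended, robust prior (0.0718). Tmx1 missed it without any 1 of 7 arrays, with median centring (0.0620) and with the 2 groups alone (0.107). Msra, a methionine sulfoxide reductase, was higher in CKO than in WT under the drug by 0.55 ± 0.11 (limma adjusted p = 0.0457), but not without any 1 of 10 arrays, with no filter (0.155) or with the 2 groups alone (0.0958).

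Txnip, the inhibitor that binds reduced thioredoxin, ranged from 10.43 to 11.14 (WT vehicle), 9.26 to 10.30 (WT CDDO-Im), 10.00 to 10.44 (CKO vehicle) and 9.62 to 10.62 (CKO CDDO-Im). WT CDDO-Im lay below WT vehicle without overlap, where 23.3% of all tested probe sets did not overlap. The difference of -0.97 ± 0.33 missed the threshold (limma adjusted p = 0.135). Prdx4, the peroxiredoxin of the endoplasmic reticulum, differed by -0.10 with the deletion and 0.03 with the drug in WT livers (limma adjusted p = 0.646 and 0.920). Txnrd3, the reductase known from testis, lay between 4.41 and 4.82 on all arrays and was not tested.

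The reductases draw on NADPH. Of 9 genes of NADPH supply listed, 6 were tested, and G6pdx, Me3 and Mthfd2 were not. Only Pgd, phosphogluconate dehydrogenase of the pentose phosphate pathway, was called. Of all genes 3.17% rose with the deletion and 1.91% with the drug in WT livers. The list's median change was 0.15 and 0.23. In WT vehicle, CKO vehicle and WT CDDO-Im, Me1 averaged 13.37, 12.92 and 12.92, and Idh1 14.25, 14.07 and 14.28. Aldh1l1 averaged 14.35, 14.78 and 14.75, Idh2 10.19, 10.51 and 10.49, and Nnt 10.16, 10.13 and 10.33. Pgd rose by 1.09 ± 0.14 with the deletion and by 1.01 ± 0.14 with the drug in WT livers (limma adjusted p = 0.00156 and 0.00367), and the drug difference in CKO livers was -0.21 (95% interval -0.52 to 0.09). Of 13 tested nuclear genes of general mitochondrial proteins, listed for comparison with the mitochondrial members, the deletion called Tomm20 higher (0.39 ± 0.10, limma adjusted p = 0.0449) and the drug in WT livers called Cs, citrate synthase, lower (-0.48 ± 0.09, limma adjusted p = 0.0207). The Tomm20 call was lost without any 1 of 11 arrays, with no filter and with the 2 groups alone (up to 0.142 without an array), and the Cs call without WT vehicle replicate 2 or 3 or WT CDDO-Im replicate 2 or 4 (up to 0.0839), with no filter and with the 2 groups alone.

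The genes most like Txnrd1 and Srxn1 over the 12 arrays were sought among 8141 tested genes, as a description. Besides each other, at a Pearson correlation of 0.968, the 5 closest to Txnrd1 were Gclc (0.977), Ubap1 (0.969), Abhd4 (0.951), Ppfibp2 (0.950) and Entpd5 (0.941). The 5 closest to Srxn1 were Ppfibp2 (0.966), Ikbkg (0.959), Gclc (0.958), Gsr (0.943) and Akr1c19 (0.934). Gclc encodes the catalytic subunit of the enzyme that starts glutathione synthesis. The 12 arrays fall into the same 4 groups for every gene, and the correlations include the differences between those groups. Txn1 correlated with Txnrd1 at 0.795, Txn2 at 0.435, Prdx2 at 0.212, Prdx3 at 0.035 and Txnrd2 at -0.128.

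Some genes listed as markers of other liver cells also moved between the groups. Over all genes, 3.17% rose and 3.2% fell with the deletion. With the drug in WT livers, 1.91% rose and 1.81% fell. Lyve1, of sinusoidal endothelium, rose by 2.24 ± 0.46 with the deletion and by 2.57 ± 0.46 with the drug in WT livers (limma adjusted p = 0.0186 and 0.0142); it was the only one of 4 tested endothelial markers called. The median change of the list was -0.11 and -0.22, with Stab2 at -0.18 and -0.53 and Kdr at -0.30 and -0.53 (limma adjusted p from 0.163 to 0.674). The list's summed log2 signal was 10.29 to 10.56 (WT vehicle), 10.11 to 10.52 (WT CDDO-Im), 10.37 to 10.55 (CKO vehicle) and 10.64 to 11.16 (CKO CDDO-Im). Lyve1 averaged 5.76 in WT vehicle and 9.68 in CKO CDDO-Im. Between these 2 groups Stab2 went from 9.57 to 9.12, Kdr from 8.97 to 8.64 and Cdh5 from 6.13 to 6.15. The list's median change there was -0.16, and Lyve1 was its only call by limma. Marco, of macrophages, rose by 2.30 ± 0.45 with the deletion (limma adjusted p = 0.0160), as the only one of 6 tested macrophage markers. Its WT vehicle arrays were 5.70, 3.95 and 4.95, with a mean under the floor of 5, so it passed the filter only through the groups where it was higher. The macrophage list had summed signals of 12.70 to 13.61 in WT vehicle and 13.06 to 13.63 in CKO vehicle. With the drug they were 13.15 to 13.31 in WT and 13.10 to 13.69 in CKO. The list's median change with the deletion was 0.26. CKO CDDO-Im against WT vehicle called 2 of 6 higher by limma, Marco and Cd5l, where 3.44% of all tested probe sets were higher. Cd5l averaged 11.09 in WT vehicle and 11.92 in CKO CDDO-Im, and the list's median change there was 0.27. Of 4 neutrophil markers only Lcn2 was tested, and it was not called in any comparison. The list's summed signal was 6.50 to 9.35 (WT vehicle), 6.49 to 9.93 (WT CDDO-Im), 9.48 to 13.36 (CKO vehicle) and 8.06 to 9.99 (CKO CDDO-Im), with S100a9 at most 3.43. Lcn2 made up most of that sum on every array, and whether the sum followed neutrophils was not tested. S100a8, not tested, was 5.03 in CKO vehicle replicate 3, 4.72 in WT CDDO-Im replicate 2 and 4.07 in CKO CDDO-Im replicate 2, the arrays with the highest Lcn2 of their groups (13.35, 9.88 and 9.95), and 2.82 to 3.18 on the other arrays. Of 4 tested stellate and fibroblast markers 1, Reln, was called with the deletion, lower by 0.51 on the log2 scale (limma adjusted p = 0.0377). The list's median change was -0.24. Dcn went from 12.86 to 12.87, Lrat from 6.76 to 6.93 and Col1a2 from 7.54 to 7.06. Reln averaged 10.16 in WT vehicle and 10.00 in CKO CDDO-Im. Of the cholangiocyte and lymphocyte markers tested, 0 of 1 and 0 of 2 were called in any comparison. The part of these cells in the Txnrd1 and Srxn1 changes was not tested.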

How the data were processed

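The deposited values are log2 signals, which per the submitters' processing notes involved GCRMA 2.12.1 and R 2.7.0; the authors' settings and the scan dates are not known here. GCRMA corrects background by probe sequence and summarises each probe set, and changes near its floor have no reliable fold. Probe sets were named by the platform annotation: 34945 name 1 gene and 932 several. Groups came from the labels, with 3 mice each.

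A limma 3.58.1 fit in R 4.3.3 of 4 group means used all 12 arrays and the 13298 probe sets naming 1 gene with a log2 signal over 5 on at least 3 arrays (median residual SD 0.170; degrees of freedom 8 residual plus 2.36 prior). Adjusted p-values come from this fit, adjusted by Benjamini-Hochberg over the whole table, and the script was tested on simulated data. Errors of changes are SEs, errors of group means are SDs, and the number of arrays limits the precision. Fold changes were 2 to the power of the log2 change, given where both group means were over 5. Pairs of genes were compared by exact permutation within strata.

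The members, gene lists and tests were chosen with earlier results of these data known. All listed members were named; of the other thioredoxin-fold genes, those called in at least 1 of the first 4 comparisons, and Txnip, Prdx4, Txnrd3 and Gsr; as checks, Keap1 and Nqo1. Pgd, Tomm20, Cs, Lyve1, Marco, Cd5l and Reln were named as the called members of short lists. Other genes of these lists and of the remaining marker lists were given for their values. Alternatives were other filters, normalizations, spread models and sets of arrays, a block on the replicate number, and other values per gene. Probe sets with several genes entered no test.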

Additional observations from a re-analysis of the deposited data

Results flagged for a closer look

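The change with CDDO-Im was called different between the genotypes for 4 of 18 tested probe sets of the thioredoxin system, where 0.286% of all were called lower. It was also called for 2 genes that supply or parallel the system, where 0.264% of all genes were called lower. The replicate block removed all 4 member calls and the Gsr call. Leaving out 1 array could also remove the Txnrd1, Srxn1 1451680_at and Gsr calls. Given as the drug change in CKO livers minus that in WT livers on the log2 scale, the difference was -1.48 for Txnrd1 (1421529_a_at). For Srxn1 it was -3.59, -3.83 and -3.82 (1426875_s_at, 1451680_at and 1425351_at). It was -1.06 for Gsr and -1.22 for Pgd, for which the limma adjusted p of the interaction was 0.0467 and 0.0360. The Pgd call was lost with no filter on low signal (adjusted p = 0.185) and without any 1 array other than WT vehicle replicate 1 and CKO vehicle replicate 5 (adjusted p up to 0.108).

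The 5 probe sets that name both Prdx1 and Gm21399 entered no test, since their signal cannot be assigned to 1 gene. Without overlap between the groups, 1416000_a_at was higher in WT CDDO-Im than in WT vehicle by 0.16, 1434731_x_at by 0.16 and 1436691_x_at by 0.13. In CKO vehicle only 1436691_x_at was higher than in WT vehicle without overlap, by 0.12. Groups did not overlap for 23.3% of all tested probe sets in the first comparison and 25.7% in the second. The 5 probe sets name the same genes and are not separate evidence. These differences were not tested.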

How the results depend on the processing

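The rises of Txnrd1 (1421529_a_at) and of 3 Srxn1 probe sets with the deletion and with the drug in WT livers kept their direction and their call under each other filter, normalization and spread model and without any 1 array, the replicate block aside. With 1 probe set per gene the number of members called was 2 higher with the deletion, 2 higher with the drug in WT livers, 3 higher for CKO CDDO-Im against WT vehicle and 2 lower for the interaction. With no filter on low signal it was 4 higher for CKO CDDO-Im against WT vehicle, 1 lower for the interaction and 0 lower for CKO against WT under the drug. With only the groups compared it was 3 higher for CKO CDDO-Im against WT vehicle and 0 lower under the drug. Leaving out 1 array gave 0 to 1 lower under the drug and 2 to 5 lower for the interaction.

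Over all probe sets, the deletion called 828, against 286 with no filter, 340 with only the groups compared and 376 to 805 without 1 array. The drug in WT livers called 526, against 168, 183 and 196 to 544. CKO against WT under the drug called 195, against 37, 83 and 48 to 189. CKO vehicle against WT CDDO-Im called 496, against 133, 131 and 149 to 509. CKO CDDO-Im against WT vehicle called 1017, against 368 with no filter, 507 with only the groups compared and 540 to 991 without 1 array. The interaction called 42, against 13 with no filter and 6 to 51 without 1 array. The drug in CKO livers called 0 by limma, against 1 with no filter and 0 to 2 without 1 array, with 1141 at an unadjusted p under 0.05.

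Replicate numbers were not taken to pair the mice. Of 12 pairs of arrays with the same number 3 correlated over 0.1 in their deviations (-0.182 to 0.128, median 0.041). With different numbers it was 8 of 42 pairs (-0.271 to 0.243, median 0.007). These weak correlations cannot exclude a pairing or a batch. With the replicate block the members called were 3 higher with the deletion, 4 higher for CKO CDDO-Im against WT vehicle, 0 lower under the drug and 0 lower for the interaction. Srxn1 1451680_at was among those not called with the deletion under the block (2.19, limma adjusted p = 0.0641). Of the other genes named, Gsr, Msrb1, Txndc17, Tmx3 and Tomm20 also lost their deletion calls under it (limma adjusted p = 0.0868, 0.199, 0.224, 0.183 and 0.330). Over all probe sets the block called 112 with the deletion, 217 with the drug in WT livers, 46 under the drug, 226 for CKO vehicle against WT CDDO-Im, 489 for CKO CDDO-Im against WT vehicle, 8 for the interaction and 5 for the drug in CKO livers.

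With the mean of a gene's probe sets the cytosolic median was 0.94 with the deletion and 0.96 with the drug in WT livers, and the mitochondrial median for CKO against WT under the drug was -0.0086. Without 1 array the mitochondrial median was -0.191 to 0.0595 for the drug in CKO livers and -0.282 to -0.0762 for CKO against WT under the drug. The genotype difference of Prdx2 minus Prdx3 was -0.0920 with the mean of probe sets, -0.0120 with quantile normalization and -0.0537 to 0.0524 without 1 array, and its treatment difference 0.11 to 0.22. The genotype difference of Txn1 minus Txn2 was 0.17 with the mean of probe sets, against 0.32. Without 1 array Txn1 minus Txn2 gave 0.24 to 0.38 for genotype and -0.0205 to 0.124 for treatment, and Txnrd1 minus Txnrd2 gave 0.69 to 0.77 for treatment. The cause of these differences was not tested. Prdx1 minus Prdx3 was not run, and leaving out Prdx5 changed no value, since neither Prdx1 nor Prdx5 had a probe set of its own. Signal near the floor and 3 mice per group limit the precision.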

Other observations

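Prdx1, a cytosolic peroxiredoxin, could be read only together with Gm21399. The 5 shared probe sets had WT vehicle means from 10.47 to 14.27 and SDs from 0.08 to 0.12 (n = 3) on the log2 scale. Their differences from WT vehicle were 0.07 to 0.16 in CKO vehicle and 0.07 to 0.20 in WT CDDO-Im. CKO CDDO-Im differed from CKO vehicle by -0.02 to 0.01. The promoter window of Prdx1 held the antioxidant response element core 133 bases before its start.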
